A study of Mus musculus with 4 samples.

Results

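Cholangiocytes, the epithelial cells that line the bile ducts, and hepatic stellate cells, the pericytes of the liver sinusoid that store vitamin A and lay down collagen after injury, are minor cell types of the liver, where hepatocytes dominate. The chromatin of 10 genes that mark them was examined. Sox9, Krt19, Krt7, Epcam and Spp1 are the markers of cholangiocytes, and Lrat, Des, Pdgfrb, Reln and Col1a1 those of stellate cells. They were chosen by name as established markers and are 10 of the 21938 protein-coding genes of the GENCODE vM21 annotation (GRCm38) on chromosomes 1 to 19, X and Y. For each gene, every called peak inside it or up to 10 kb from its transcription start site (TSS) was taken from all 4 deposited peak lists.

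The peaks come from 2 male C57Bl/6 mice of 8 to 12 weeks of age that were fed a normal diet and whose livers were collected in the morning. Both mice carried floxed alleles of Uhrf1, a gene required to maintain DNA methylation. The WT liver was Uhrf1-fl/fl and the Uhrf1hepKO liver was Uhrf1-fl/fl;Alb:Cre, in which the albumin promoter drives the Cre recombinase that deletes Uhrf1. This promoter is active in hepatocytes and in the fetal hepatoblasts from which hepatocytes and cholangiocytes both descend, while stellate cells have another origin. From each of the 2 livers, 1 ATACseq library, in which a transposase cuts accessible DNA, and 1 H2A.Z ChIPseq library, in which an antibody pulls down nucleosomes with this histone variant, were made. With 1 library per condition there was no replicate error and no test between genotypes, so no p-value is given for any difference, and intervals cover counting error only. Peaks carry no RNA level and no sequence of the sample, so neither the Uhrf1 deletion nor the share of each cell type could be checked in them.

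Accessible promoters and enhancers appear in ATACseq as peaks, and H2A.Z is known to sit in the nucleosomes that flank active or poised promoters and enhancers. A peak called in whole liver does not name the cell type it comes from, and in such bulk tissue fewer cells of a type and a lower signal per cell cannot be told apart.

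On chromosomes 1 to 19, X and Y the lists held 10582 peaks for WT ATACseq, 10764 for Uhrf1hepKO ATACseq, 51450 for WT H2A.Z and 47135 for Uhrf1hepKO H2A.Z. The median width was 232 and 207 bp in the ATACseq lists and 156 and 167 bp in the H2A.Z lists, in the same order of genotypes. Fold is the pileup of reads over a local background as the peak caller gives it, and its median was 4.31 and 4.05 in ATACseq and 5.12 and 5.35 in H2A.Z. For H2A.Z the number of reads that cover the summit (the pileup) could be recovered from the fold and the p-value, and its median was 21 in WT and 23 in Uhrf1hepKO. H2A.Z peaks with fewer than 11 reads in WT or 12 in Uhrf1hepKO are not in the lists, so a gene without a peak may still hold signal under this limit.

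Most of the marker genes had no called peak at all. Krt19, Krt7, Epcam, Lrat, Des and Pdgfrb, 6 of the 10, had none in any list, and the other 4 genes, Sox9, Spp1, Reln and Col1a1, held 23 peaks. Within each genotype, the same 6 of the 10 had a peak of neither assay. Of all protein-coding genes, 32.8% had a peak of neither assay in WT and 33.7% in Uhrf1hepKO. In the other marker lists described below, this share ran from 33.3% to 80% in each genotype. Among their 10 hepatocyte genes it was 60% in WT and 40% in Uhrf1hepKO. Of the 23 peaks, 2 were from WT ATACseq, 1 from Uhrf1hepKO ATACseq, and 10 from each H2A.Z list. By gene, ATACseq peaks were found at Sox9 and Col1a1 in WT (2 of 10, where 39.2% of all protein-coding genes had one) and at Col1a1 in Uhrf1hepKO (1 of 10, where 37.7% had one). H2A.Z peaks were found in both genotypes at Sox9, Spp1 and Reln (3 of 10, against 64.3% of protein-coding genes in WT and 62.4% in Uhrf1hepKO). The Wilson 95% interval of 3 of 10 runs from 10.8% to 60.3%, and that of 2 of 10 from 5.67% to 51.0%. These intervals treat the genes as if drawn independently of each other, which genes chosen by name were not.

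The 2 sets of markers had similar numbers of genes with a peak, but 5 genes each are too few to tell whether they differ. By number of H2A.Z peaks, the cholangiocyte genes had 7 in WT and 8 in Uhrf1hepKO, and the stellate genes 3 and 2. Among the 5 cholangiocyte genes, H2A.Z peaks were present at 2 in both genotypes, and an ATACseq peak at 1 in WT and 0 in Uhrf1hepKO. Among the 5 stellate genes, Reln had H2A.Z peaks and Col1a1 an ATACseq peak in both genotypes, 1 gene each. Sox9 in WT was the only one of the 10 with peaks of both assays, a combination found at 36.3% of protein-coding genes in WT. Genes with H2A.Z and no ATACseq peak, as Spp1 and Reln in both genotypes and Sox9 in Uhrf1hepKO, made up 28.0% of protein-coding genes in WT and 28.6% in Uhrf1hepKO. The reverse, ATACseq without H2A.Z, was found at Col1a1 in both genotypes and at 2.91% and 3.90% of protein-coding genes.

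**Figure D1:**
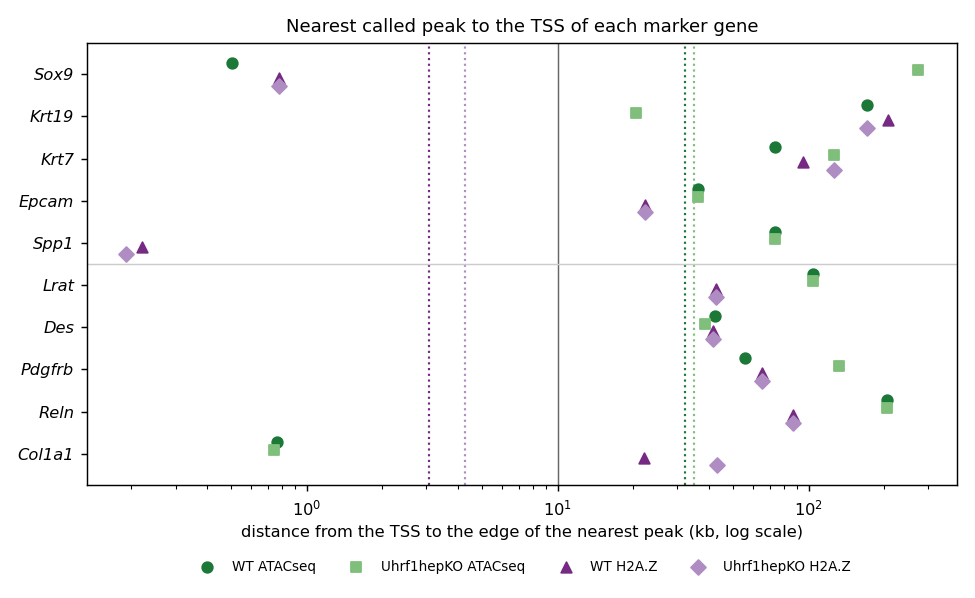
Distance in kb, on a log scale, from the TSS of each marker gene to the edge of the nearest called peak in each of the 4 lists (points), with cholangiocyte genes above the grey line and stellate genes under it; dotted lines are the medians over all protein-coding genes and the solid vertical line is 10 kb. H2A.Z peaks lie within 1 kb of the TSS at Sox9 and Spp1, and ATACseq peaks at Sox9 in WT and at Col1a1 in both genotypes.

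Among the cholangiocyte genes, Spp1 carried the most peaks. Spp1 encodes osteopontin, a secreted matrix glycoprotein made by biliary cells and rising in liver injury. The gene (ENSMUSG00000029304, chromosome 5, 104435118 to 104441050, plus strand) held 5 H2A.Z peaks in WT and 6 in Uhrf1hepKO, and no ATACseq peak in either. Among protein-coding genes, 12.1% had 5 or more H2A.Z peaks in WT and 10.2% in Uhrf1hepKO, where 5.93% had 6 or more. Spp1 is short, at 5933 bp, and 4 of its 5 WT peaks had their summit in the first 2 kb downstream of the TSS.

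The order along Spp1 was much the same in both livers. The peak farthest upstream had its summit 2155 bp before the TSS in WT (fold 5.85, pileup 23) and 2149 bp before it in Uhrf1hepKO (fold 4.88, pileup 20). Within intron 1, the WT summit lay at 305 bp (fold 4.63, pileup 18) and the Uhrf1hepKO summit at 278 bp (fold 5.81, pileup 24). The peak with the highest fold of each list at Spp1 covered exon 2, with its summit at 1334 bp in WT, just past the exon (fold 6.09, pileup 24), and at 1322 bp in Uhrf1hepKO, inside it (fold 6.74, pileup 28). Exon 2 holds the start codon of Spp1, and no peak covered the TSS itself. Farther in, a single WT peak of 319 bp with its summit at 1961 bp (fold 4.63, pileup 18) stood where Uhrf1hepKO had 2 narrower ones of 107 and 109 bp, at 1774 bp (fold 5.35, pileup 22) and 1986 bp (fold 4.65, pileup 19).

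Each genotype had 1 peak at Spp1 that did not overlap one in the other. In WT it lay in intron 3, with its summit at 1566 bp (fold 4.63, pileup 18), and the nearest Uhrf1hepKO peak began 100 bp away. In Uhrf1hepKO it lay downstream of the gene, at 8534 bp, with a pileup of 16 over a local background of 4.31 reads, and its fold of 3.20 was among the lowest 1.86% of that list. The nearest WT peak to it was 6404 bp away. The pileups of both unshared peaks were close to the median of unshared H2A.Z peaks at protein-coding genes, 17 in WT and 18 in Uhrf1hepKO, whereas shared peaks had medians of 24 and 25. The length covered by H2A.Z peaks at Spp1 was 998 bp in WT and 968 bp in Uhrf1hepKO.

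Spp1 has a CpG-poor start. There were 11 CpGs within 500 bp of the TSS, where the median protein-coding gene had 41, and the share of genes of its CpG class (9 to 15 CpGs) with H2A.Z within 10 kb was 38.6% in WT and 36.8% in Uhrf1hepKO, below the 58.4% and 56.5% over all protein-coding genes. RefSeq gives Spp1 a second TSS 1074 bp downstream of the first annotated base, and the summits at 1334 and 1322 bp lay 260 and 248 bp beyond the nearest annotated transcript start. The annotated locus Gm42793, of unsettled type, starts 3 bp from Spp1, so peaks there cannot be assigned to 1 of the 2 genes. The nearest ATACseq peak was 73.2 kb from the TSS in both genotypes, at BC005561. The sequences below are those of the Spp1 promoter (RefSeq, GRCm38.p6, chr5:104434861-104435160, plus strand, 250 bases before and 50 from the TSS), over which no peak was called, and of the 151 bases around the WT summit at the end of exon 2 (chr5:104436377-104436527, plus strand), which carried the highest WT fold at the gene. Capitals mark CpG dinucleotides, 3 in each.
Spp1 promoter: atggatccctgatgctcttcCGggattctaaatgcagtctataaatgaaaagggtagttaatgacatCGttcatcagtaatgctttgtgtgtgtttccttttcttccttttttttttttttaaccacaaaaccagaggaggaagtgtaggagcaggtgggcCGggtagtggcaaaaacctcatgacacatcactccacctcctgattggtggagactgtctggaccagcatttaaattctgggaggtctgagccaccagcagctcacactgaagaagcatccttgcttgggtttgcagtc
Spp1 H2A.Z summit at 1334 bp: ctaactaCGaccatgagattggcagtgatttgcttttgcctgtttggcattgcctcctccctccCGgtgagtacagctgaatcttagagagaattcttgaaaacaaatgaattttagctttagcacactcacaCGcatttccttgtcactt
Both were searched on both strands for 7 short motifs, namely a TATA box (TATAAA), the CCAAT box, a GC box known for Sp1 (GGGCGG), and the core letters known for AP-1 (TGACTCA), TEAD factors (CATTCC), SOX factors (ACAATG) and the Notch effector RBPJ (TGGGAA). The promoter held TATAAA once, at -211 bp from the TSS (in 13.6% of all promoters of this length in the table), and CCAAT once, at -46 bp (37.4%). The summit window held CCAAT once, as did 15.9% of the WT H2A.Z summit windows of the same length. No match given here overlaps another, and a match is a string of letters and no evidence of a bound factor.

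**Figure D2:**
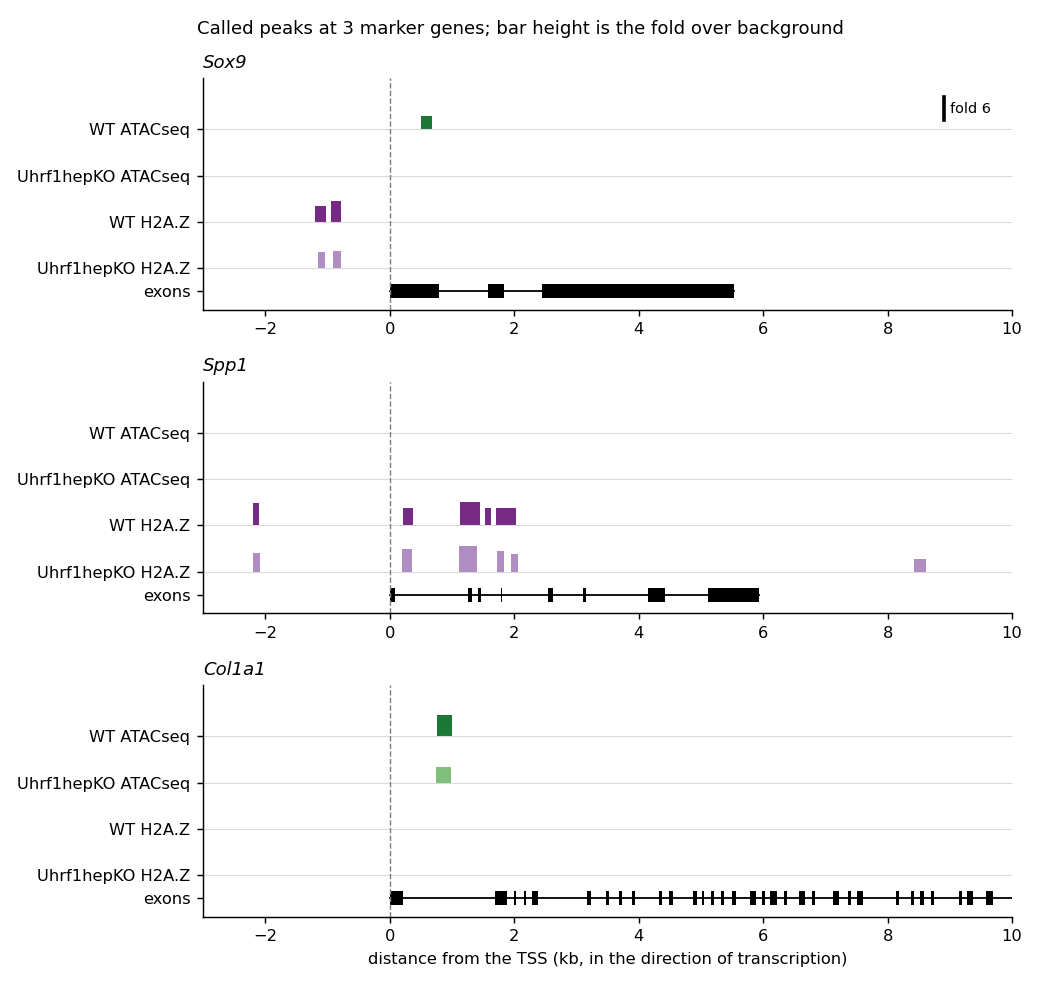
Called peaks of the 4 lists (colored bars, height in proportion to the fold over background, with a scale bar of fold 6) along Sox9, Spp1 and Col1a1, in kb from the TSS in the direction of transcription; black boxes are the exons of the transcript used, the shortest drawn wider than to scale. H2A.Z without ATACseq is seen at Spp1, ATACseq without H2A.Z at Col1a1, and at Sox9 the H2A.Z peaks stand upstream of the TSS in both genotypes while the ATACseq peak in exon 1 is in WT alone.

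Sox9 encodes a transcription factor of the SOX family that is required for bile duct development and is kept on in cholangiocytes. The gene (ENSMUSG00000000567, chromosome 11, 112782224 to 112787760, plus strand) had 2 H2A.Z peaks in each genotype, both upstream of the TSS. In WT their summits lay 1155 bp (fold 4.14, pileup 16, Poisson 95% interval 9.15 to 26.0) and 857 bp (fold 5.36, pileup 21, 13.0 to 32.1) before the TSS. In Uhrf1hepKO they lay 1110 bp (fold 4.18, pileup 17, 9.90 to 27.2) and 852 bp (fold 4.42, pileup 18, 10.7 to 28.4) before it. Position and height were thus close between the livers, and the intervals of each pair overlapped. The summits of the pair were 298 bp apart in WT and 258 bp in Uhrf1hepKO.

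The noncoding gene BC006965 starts 248 bp from Sox9 on the opposite strand and runs away from it, and the H2A.Z peaks lie inside BC006965, 907 and 609 bp from its TSS in WT. They are therefore nearer to the start of BC006965 than to that of Sox9, and the lists do not tell the genes apart. Sox9 has a CpG-rich start with 76 CpGs within 500 bp of the TSS. In that class of genes (75 to 92 CpGs), 80.5% had H2A.Z within 10 kb in WT and 78.0% in Uhrf1hepKO, so Sox9 was with the majority.

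The only ATACseq peak at a cholangiocyte gene was the WT peak in the coding part of Sox9 exon 1. It spans 173 bp (chromosome 11, 112782726 to 112782898), is centred 588 bp after the TSS and has a fold of 3.56 and a q-value of 0.0561. It was one of the weakest of the list: 94.7% of WT ATACseq peaks had a lower q-value. No Uhrf1hepKO ATACseq peak overlapped it, and the nearest was 273 kb from the TSS, past the end of the gene. Of WT ATACseq peaks at protein-coding genes, 65.0% overlapped a Uhrf1hepKO peak. The 1 Uhrf1hepKO peak, at Col1a1, overlapped a WT peak, as did 66.0% of Uhrf1hepKO ATACseq peaks at protein-coding genes. The H2A.Z peak nearest to the Sox9 ATACseq peak was 1278 bp away, where 73.2% of WT ATACseq peaks at protein-coding genes had one within 500 bp. The sequences shown are this peak, whole (GRCm38, chr11:112782726-112782898, plus strand, 14 CpGs), and the 151 bases around the higher WT H2A.Z summit (chr11:112781292-112781442, plus strand, 9 CpGs), since these are the 2 places that differ in assay at Sox9. Capitals mark CpG.
Sox9 ATACseq peak: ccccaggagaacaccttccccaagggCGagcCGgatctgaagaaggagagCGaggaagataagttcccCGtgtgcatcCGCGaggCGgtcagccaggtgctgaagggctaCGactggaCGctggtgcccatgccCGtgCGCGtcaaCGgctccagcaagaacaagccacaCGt
Sox9 H2A.Z summit at -857 bp: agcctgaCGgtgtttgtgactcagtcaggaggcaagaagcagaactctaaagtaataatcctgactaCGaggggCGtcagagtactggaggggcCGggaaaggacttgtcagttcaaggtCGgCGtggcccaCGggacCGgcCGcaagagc
The ATACseq peak had 14 CpGs, against a median of 8 in windows of its length in that list, of which 72.4% had as many or fewer. The H2A.Z window had 9 against a median of 2, a number that 91.8% of the WT H2A.Z windows did not exceed. Of the 7 motifs listed above, the H2A.Z window held TGACTCA once, as did 2.58% of such windows, and the ATACseq peak held none.

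The other cholangiocyte genes, Krt19, Krt7 and Epcam, had no peak in the gene or within 10 kb. Krt19 and Krt7 encode keratins of the simple ductal epithelium, and Epcam an epithelial cell adhesion protein. Krt19 (ENSMUSG00000020911, chromosome 11, 100140810 to 100148665, minus strand) lay farther from H2A.Z than any other of the 10, 207 kb from its TSS in WT, at Hap1, and 171 kb in Uhrf1hepKO, at Eif1. Its nearest ATACseq peak was 171 kb away in WT, also at Eif1, and 20.5 kb upstream in Uhrf1hepKO (fold 3.76, q-value 0.0134), where Krt19 was the nearest annotated TSS. Krt7 (ENSMUSG00000023039, chromosome 15, 101411043 to 101430313, plus strand) had its nearest ATACseq peak 73.2 kb away in WT and 127 kb in Uhrf1hepKO, and its nearest H2A.Z peak 94.9 kb and 127 kb away. The Uhrf1hepKO peaks of both assays were at Atg101.

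Epcam (ENSMUSG00000045394, chromosome 17, 87635979 to 87651129, plus strand) had an H2A.Z peak 22.3 kb upstream of the TSS in both genotypes. Epcam was the nearest annotated TSS to the peak of each genotype. In WT the summit lay 22623 bp from the TSS, with a pileup of 26, and in Uhrf1hepKO 22317 bp from it, with a pileup of 15. The 2 pileups were thus read at different places and are not scaled between the libraries. Within 10 kb of the TSS, 34.4% of all protein-coding genes had a WT ATACseq peak and 58.4% a WT H2A.Z peak. With 14 CpGs near the TSS, Krt19 is in the class of Spp1, where the shares were 16.0% and 38.6%. With 5 CpGs near its first annotated base, Krt7 is in a class where they were 10.2% and 26.2%. RefSeq places the Krt7 TSS 1360 bp downstream of that base, where CpGs were not counted. For Epcam, with 31 CpGs, the shares were 31.2% and 63.2%. When peaks elsewhere in the gene count too, the WT H2A.Z shares rise to 46.9% (class of Krt19), 32.6% (Krt7) and 71.2% (Epcam).

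Among the stellate genes, Col1a1 alone had an ATACseq peak. Col1a1 encodes the pro-alpha1 chain of type I collagen, the main fibrillar collagen of scar tissue. The gene is on chromosome 11 (ENSMUSG00000001506, 94936224 to 94953042, plus strand), and the peak lay in intron 1 in both genotypes. In WT it spanned 241 bp, was centred 879 bp after the TSS and had a fold of 5.52 with a q-value of 3.02e-06, and 21.3% of the list had a lower q-value. In Uhrf1hepKO it spanned 248 bp, was centred at 861 bp and had a fold of 3.93 with a q-value of 0.00393, and 57.1% of the list had a lower q-value. The peaks shared 227 bp, which is 94.2% of the WT width. The lists are not scaled to each other, so the folds of 5.52 and 3.93 are given side by side and not as a difference.

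No H2A.Z peak accompanied it. The nearest was 21116 bp from the ATACseq peak in WT and 42007 bp in Uhrf1hepKO, both past the end of Col1a1, and 86.6% and 89.4% of ATACseq peaks at protein-coding genes had an H2A.Z peak at least as close. The median distance of ATACseq peaks at protein-coding genes to an H2A.Z peak was 35 bp in WT and 59 bp in Uhrf1hepKO. Over all 10 genes, 0 of 2 WT and 0 of 1 Uhrf1hepKO ATACseq peaks had H2A.Z within 500 bp, where the shares at protein-coding genes were 73.2% and 66.5%. The WT peak (GRCm38, chr11:94936983-94937223, plus strand, 10 CpGs in capitals) is shown whole because it was the strongest ATACseq peak at any of the 10 genes.
Col1a1 ATACseq peak: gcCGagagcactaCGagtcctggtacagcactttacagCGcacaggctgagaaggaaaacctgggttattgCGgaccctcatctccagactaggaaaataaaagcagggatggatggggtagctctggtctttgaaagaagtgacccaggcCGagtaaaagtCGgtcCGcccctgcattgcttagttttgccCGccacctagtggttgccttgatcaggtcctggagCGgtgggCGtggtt
It held GGGCGG once, a string present in 36.3% of WT ATACseq windows of the same length, and none of the other 6 motifs. With 10 CpGs it was near the median of 11 for such windows.

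Reln encodes reelin, a large secreted glycoprotein best known from the brain, which in the liver is made by stellate cells. The gene (ENSMUSG00000042453, chromosome 5, 21884454 to 22344702, minus strand) spans 460249 bp and had H2A.Z peaks only deep inside, in introns. A peak in intron 6 had its summit 209 kb from the TSS in both genotypes. It was 478 bp wide in WT (fold 7.07, pileup 28) and 465 bp in Uhrf1hepKO (fold 7.67, pileup 32), and the summits were 1 bp apart. A peak in intron 8, 237 kb from the TSS, was 720 bp wide in WT (fold 8.04, pileup 32) and 360 bp in Uhrf1hepKO (fold 6.51, pileup 27). The WT peak in intron 8 was wider than 98.0% of its list. The folds of these 4 peaks, 6.51 to 8.04, stand beside a highest fold of 6.74 at Spp1 and 5.36 at Sox9.

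The third WT peak, in intron 51, stood apart from these. It was 95 bp wide, with a fold of 2.64, a pileup of 13 over a local background of 4.30 reads and a q-value of 0.0471, and 99.9% of the list had a lower q-value. No Uhrf1hepKO peak overlapped it. Counting all of them, Reln had 0.652 H2A.Z peaks per 100 kb in WT and 0.435 in Uhrf1hepKO, where the median of the 2194 longest protein-coding genes, of 110 kb or more, was 0.902 and 0.820. The gene was thus not dense in H2A.Z for its length, and 84.5% of genes of this length class had at least 1 H2A.Z peak in WT. The intron 6 summit lay 951 bp from the start of a shorter annotated Reln transcript, and the intron 8 summit 27239 bp from the nearest.

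The start of Reln, in contrast, had no peak in any list. It is among the most CpG-rich of the genome, with 149 CpGs within 500 bp of the TSS. In that class (92 to 172 CpGs), 49.0% of genes had a WT ATACseq peak and 76.8% a WT H2A.Z peak within 10 kb. The nearest H2A.Z peak to the Reln TSS was 87.0 kb upstream in both genotypes, with a pileup of 18 in WT and 22 in Uhrf1hepKO, and the nearest ATACseq peak was at Orc5, 205 kb in WT and 206 kb in Uhrf1hepKO from the TSS. The promoter (RefSeq, GRCm38.p6, chr5:22344656-22344955, minus strand) is shown beside the 151 bases around the summits in intron 6 (GRCm38, chr5:22135545-22135695) and intron 8 (chr5:22107355-22107505), all on the strand of the gene with CpG in capitals, so that the start without a peak can be compared with the intronic sequence that had one.
Reln promoter: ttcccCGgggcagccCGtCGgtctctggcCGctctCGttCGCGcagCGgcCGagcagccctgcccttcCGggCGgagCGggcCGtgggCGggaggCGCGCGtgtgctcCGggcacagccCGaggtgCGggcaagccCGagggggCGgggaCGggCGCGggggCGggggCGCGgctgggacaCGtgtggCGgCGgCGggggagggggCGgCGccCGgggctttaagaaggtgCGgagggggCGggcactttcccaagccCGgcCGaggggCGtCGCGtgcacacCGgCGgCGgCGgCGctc
Reln H2A.Z summit in intron 6: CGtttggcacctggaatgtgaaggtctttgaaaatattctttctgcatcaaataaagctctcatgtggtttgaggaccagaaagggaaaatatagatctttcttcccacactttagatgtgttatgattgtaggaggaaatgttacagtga
Reln H2A.Z summit in intron 8: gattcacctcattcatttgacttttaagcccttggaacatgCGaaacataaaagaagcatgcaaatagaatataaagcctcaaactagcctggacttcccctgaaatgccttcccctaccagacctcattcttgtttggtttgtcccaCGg
The promoter holds 47 CpGs, a number not exceeded by 98.8% of promoters in the table, and its GC content is 80.7%. The intronic windows hold 1 and 2 CpGs, against a median of 2 for WT H2A.Z summit windows. The promoter held GGGCGG 6 times and TGGGAA once, strings found in 35.7% and 25.6% of promoters. The intron 6 window held CATTCC once and TGGGAA once (8.04% and 13.8% of such windows), and the intron 8 window TATAAA once (7.76%).

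**Figure D3:**
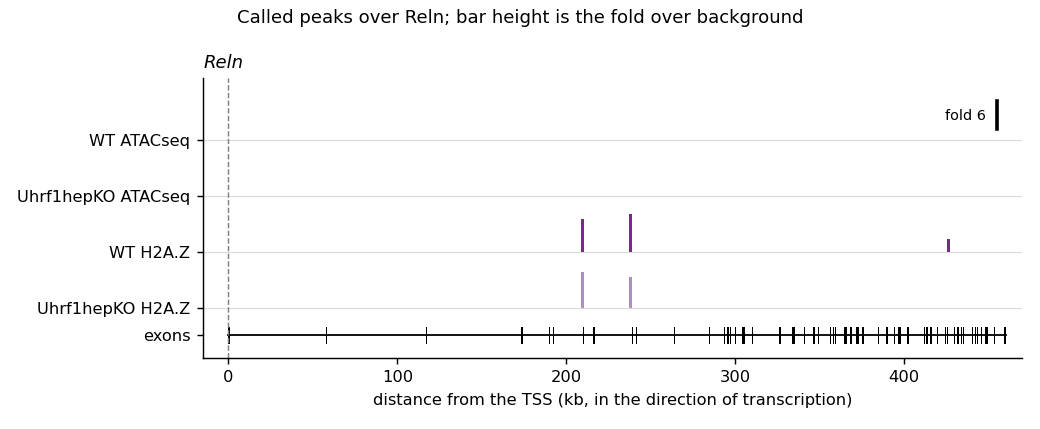
Called peaks over the whole of Reln, in kb from the TSS in the direction of transcription, with bar height in proportion to the fold and a scale bar of fold 6; peaks and exons are drawn wider than to scale so that they can be seen. The H2A.Z peaks at 209 and 237 kb are in both genotypes, the low one at 425 kb is in WT alone, and no ATACseq peak is present.

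The remaining stellate genes had no peak inside the gene or nearer than 10 kb to the TSS. Lrat encodes the enzyme that esterifies retinol for storage, and Des the intermediate filament protein desmin. Lrat (ENSMUSG00000028003, chromosome 3, 82892579 to 82903973, minus strand) had an H2A.Z peak 42.9 kb upstream in WT (pileup 20) and 42.8 kb upstream in Uhrf1hepKO (pileup 18), for which it was the nearest annotated TSS. Its nearest ATACseq peak was 104 kb away in both genotypes, at the TSS of the hepatocyte gene Fgg. Des (ENSMUSG00000026208, chromosome 1, 75360329 to 75368579, plus strand) was 41.8 kb from H2A.Z peaks in both genotypes (pileup 40 and 38), which lay 200 and 203 bp from the start of Dnpep. Its nearest ATACseq peak was at Dnpep too in WT, 42.4 kb away, and on the other side of Des in Uhrf1hepKO, 38.5 kb away.

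Des and Lrat are CpG-rich genes without peaks. Des has 70 CpGs within 500 bp of the TSS and Lrat 61, and in their classes 57.2% and 52.2% of genes had a WT ATACseq peak, and 82.0% and 79.7% a WT H2A.Z peak, within 10 kb. In Uhrf1hepKO the shares of these classes were 53.1% and 50.3% for ATACseq and 80.5% and 77.6% for H2A.Z. The Des promoter (RefSeq, GRCm38.p6, chr1:75360042-75360341, plus strand) is shown as a start of this class that had no peak in any list, with CpG in capitals.
Des promoter: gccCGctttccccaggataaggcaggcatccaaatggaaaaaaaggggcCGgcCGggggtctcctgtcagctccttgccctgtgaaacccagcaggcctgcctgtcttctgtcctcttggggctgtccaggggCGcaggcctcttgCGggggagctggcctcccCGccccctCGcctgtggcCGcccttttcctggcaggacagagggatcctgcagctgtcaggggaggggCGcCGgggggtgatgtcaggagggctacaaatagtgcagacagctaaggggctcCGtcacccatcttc
It holds 11 CpGs, a number not exceeded by 60.4% of promoters in the table, whose median is 7, and GGGCGG 2 times.

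Pdgfrb encodes a receptor for platelet-derived growth factor that marks pericytes, and it too was without a peak. Pdgfrb (ENSMUSG00000024620, chromosome 18, 61045150 to 61085061, plus strand) had its nearest H2A.Z peak 65.3 kb away in both genotypes (pileup 19 and 25), within Csf1r, a macrophage gene downstream of it. Its nearest ATACseq peak was 55.7 kb away in WT and 132 kb in Uhrf1hepKO. With 31 CpGs near the TSS it shares the class of Epcam.

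Over all 10 genes, the TSS was a median of 64.5 kb from the nearest ATACseq peak in WT and 88.5 kb in Uhrf1hepKO, where the medians over protein-coding genes were 32.1 and 34.9 kb. For H2A.Z the medians were 42.4 kb in WT and 42.9 kb in Uhrf1hepKO for the 10 genes, and 3.08 and 4.29 kb over protein-coding genes. Both medians of the 10 genes were thus farther out than those over protein-coding genes, in both genotypes. The spread among the 10 was wide, since the nearest H2A.Z peak was 0.220 kb from the TSS at Spp1 and 207 kb at Krt19 in WT.

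H2A.Z peaks at the marker genes overlapped between the livers at shares near those over all protein-coding genes. Of the 10 WT peaks, 8 overlapped a Uhrf1hepKO peak (73.4% of WT H2A.Z peaks at protein-coding genes did), and of the 10 Uhrf1hepKO peaks, 9 overlapped a WT peak (79.7%). They made 9 overlapping pairs, since 1 WT peak at Spp1 overlapped 2 Uhrf1hepKO peaks. Where an overlap of at least 50% of both peaks was required, 7 of 10 were shared in each list. The Uhrf1hepKO pileup was higher in 6 pairs and lower in 3, where over all 26753 overlapping pairs of the genome it was higher in 59.1% and lower in 33.1%. The ratio of Uhrf1hepKO to WT pileup ran from 0.844 at the intron 8 peak of Reln to 1.33 at the intron 1 peak of Spp1, with a median of 1.06. That is within the central 95% of all pairs, 0.68 to 1.72, whose median was 1.07. The pileups are not scaled between the libraries, and the median local background was also higher in Uhrf1hepKO than in WT. The counts of higher and lower pairs and the ratios are therefore not given as a difference between genotypes. Whether the pileups differ beyond the background was not tested. In none of the 9 pairs were the Poisson 95% intervals apart, as they were in 0.845% of all pairs. With so low a share over all pairs, none among 9 says little about whether the livers differ at these genes. A difference of the size seen at the intron 1 peak of Spp1, 18 against 24 reads, was not detectable at this depth.

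**Figure D4:**
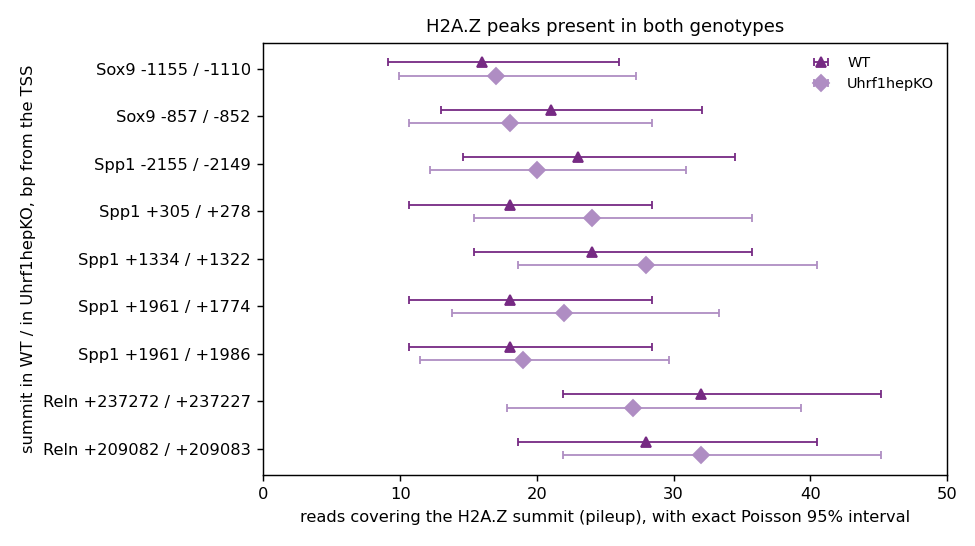
Reads covering the summit of each H2A.Z peak at Sox9, Spp1 and Reln that overlapped a peak of the other genotype (triangles WT, diamonds Uhrf1hepKO), with exact Poisson 95% intervals that cover counting error only; labels give the distance of both summits from the TSS in bp. All 9 pairs of intervals overlap, and pileups run from 16 to 32 reads, not scaled between the libraries.

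Longer lists of markers of the same cell types stood closer to all protein-coding genes in H2A.Z than the 10 genes did. Of 15 further cholangiocyte genes, 10 had an H2A.Z peak in each genotype (66.7%, beside 64.3% and 62.4% of protein-coding genes), and 5 had an ATACseq peak in WT and 7 in Uhrf1hepKO (33.3% and 46.7%, beside 39.2% and 37.7%). These genes are longer, with a median of 35.2 kb against 7.86 kb for the 5 cholangiocyte genes above. Of 15 further stellate genes, 9 had an H2A.Z peak in WT and 8 in Uhrf1hepKO (60% and 53.3%). Among the 5 stellate genes above, the H2A.Z share was 20% in each genotype. An ATACseq peak was present at 3 of the 15 in each genotype (20%, the share of the 5 stellate genes above). The median length of the 15 was 18.9 kb, against 16.8 kb for those 5. Whether gene length bears on these shares was not tested. Of 10 hepatocyte genes, 2 had an ATACseq peak and 2 others an H2A.Z peak in WT, and in Uhrf1hepKO 4 had an ATACseq and 3 an H2A.Z peak. Alb, the albumin gene, had no peak in WT and 1 ATACseq peak in Uhrf1hepKO. Of 5 endothelial genes, 3 had an H2A.Z peak in each genotype, and 2 had an ATACseq peak in WT and 1 in Uhrf1hepKO. Of 5 Kupffer cell genes, Csf1r alone had a peak, of H2A.Z, in each genotype. With lists this short, the Wilson intervals of all of them overlap within each peak list.

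**Figure D5:**
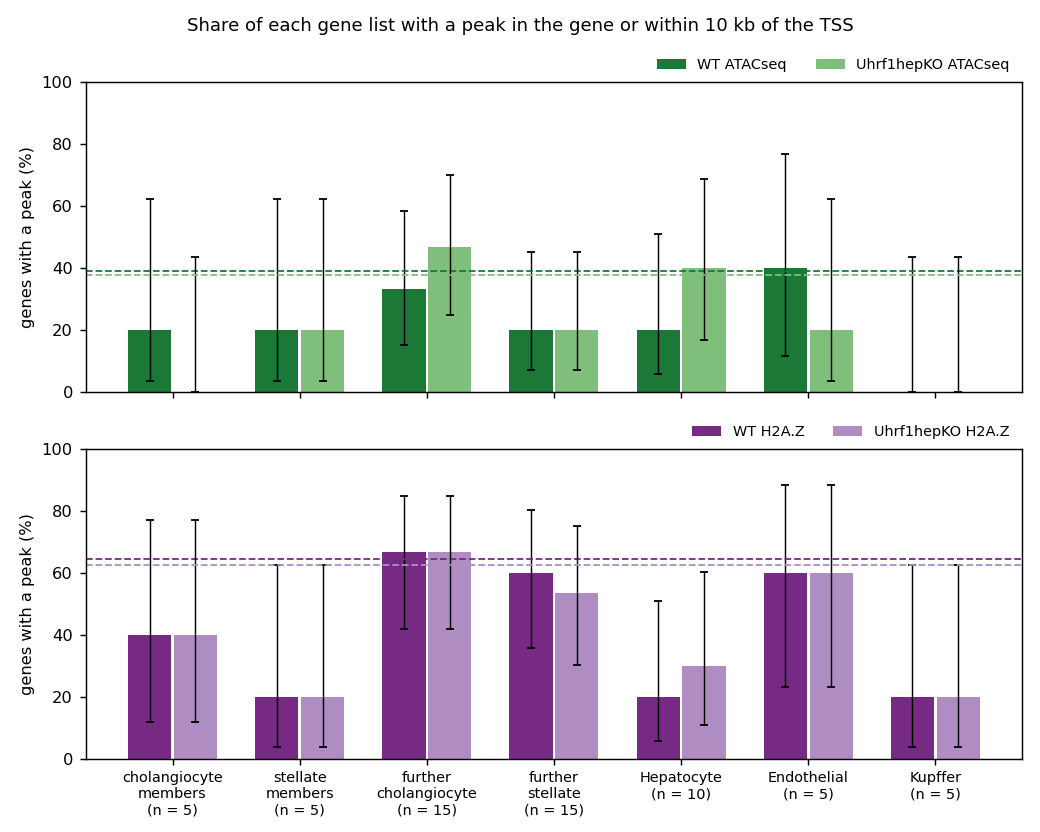
Share of genes in each list with a called peak in the gene or within 10 kb of the TSS (bars, in percent), with Wilson 95% intervals (whiskers, counting error only) and the share over all protein-coding genes in the same peak list (dashed lines); n is the number of genes in a list. The 10 marker genes are the 2 lists on the left, and hepatocyte genes stand at 20% and 40% in ATACseq and 20% and 30% in H2A.Z, WT first.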

How the data were processed

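The data are ATACseq and H2A.Z ChIPseq peak lists from 1 WT and 1 Uhrf1hepKO liver. BWA-MEM alignments to GRCm38.p4, processed with PICARD, went into MACS2, which the authors ran on each library, in broad mode for ATACseq. FastQC 0.11.5 and Trimmomatic are named in the submitters' processing notes. The mode for H2A.Z, a control library, a shift of ATACseq reads and the version of MACS2 are not given in the sources used here. ATACseq reads are described as single-end, yet MACS2 was run on them with its paired-end input setting. Each deposited peak has a score for display, a fold (a ratio of pileup to local background), and −log10 p- and q-values, which are averages over the region in ATACseq and summit values in H2A.Z. For H2A.Z the deposited lists also give the distance of the summit from the peak's start. The highest q-values were 0.0997 and 0.0993 in ATACseq and 0.0500 and 0.0489 in H2A.Z, WT first, while the methods name a p-value setting of 0.05, so the limit that made the lists is not settled. No value is scaled between libraries.

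Positions are 1-based, genes are those of GENCODE vM21, and only chromosomes 1 to 19, X and Y were kept. A peak was at a gene when it overlapped the gene or 10 kb on either side of its 5′ end, by 1 bp. CpGs were counted within 500 bp of the TSS, and classes are 10 groups of protein-coding genes of near equal size. H2A.Z pileups were solved from the fold, which is pileup plus 1 over background plus 1, and the Poisson p-value, to within 0.01 on the −log10 scale. The background was 3.10 reads in WT and 3.30 in Uhrf1hepKO at 93.6% and 91.4% of the peaks. Depth is known only through these values. Intervals are exact Poisson for pileups and Wilson for shares, both at 95%. Promoters came from a RefSeq table that holds 6 of the 10 genes, and peak sequence from the RefSeq FASTA of GRCm38.p6. As a check of the code, 200 of 200 intervals placed inside gene windows were found by the overlap search. Likewise 300 of 300 pileups were recovered from folds and p-values made with the same formula. Neither check bears on the sensitivity of the peak calls or on whether the formula holds for the deposited peaks. Genes, lists and alternatives were chosen with earlier results of these data known. The text names every marker gene, each of their peaks or the nearest peak, the gene nearest to such a peak, and genes of the further marker lists, except for some that are not reported here. Scripts ran under Python 3.11.15 with scipy 1.17.1, numpy 2.4.6, matplotlib 3.10.9 and pandas 2.3.3.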

Additional observations from a re-analysis of the deposited data

How the results depend on the processing

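Of the values recomputed under 1 changed choice each, 69 stayed within 1.5 times the main count or within the main interval and 21 did not. When peaks under their list's median fold were dropped, the WT ATACseq count fell to 1 gene and 1 peak (Col1a1, shared 0%), the Uhrf1hepKO count to 0 genes and 0 peaks, and the H2A.Z lists to 5 peaks each. With peaks of a q-value of 0.01 or lower, WT ATACseq kept 1 gene and 1 peak, and 100% of it was shared. With a window of 5 kb, 100% of Uhrf1hepKO H2A.Z peaks were shared. The share of genes with a peak was 23.5%, 22.7%, 42.5% and 41.0% over every annotated gene (WT ATACseq, Uhrf1hepKO ATACseq, WT H2A.Z, Uhrf1hepKO H2A.Z), and 37.6%, 36.5%, 62.6% and 60.7% in the same classes of gene length. In the same classes of CpG number it was 66.4% and 64.2% for WT and Uhrf1hepKO H2A.Z. No Uhrf1hepKO ATACseq peak was left at the median fold, so it gave no shared value. No paired analysis was possible because each condition has 1 library. With 1 liver per genotype, genotype and liver cannot be told apart, and a peak under the caller's limit is missing from a list without its signal being known.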

Other observations

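Among the further cholangiocyte genes, Pkhd1, the gene of fibrocystin in the primary cilium, spans 560286 bp and is longer than Reln. Pkhd1 had 8 H2A.Z peaks in each genotype and 4 ATACseq peaks in WT and 2 in Uhrf1hepKO. Its highest H2A.Z fold was 9.75 in WT and 10.9 in Uhrf1hepKO. These counts are not corrected for length. Jag1, a Notch ligand, had 5 H2A.Z peaks in WT and 4 in Uhrf1hepKO and 1 ATACseq peak in each genotype. Muc1, an apical mucin, had 2 H2A.Z peaks in each genotype, with highest folds of 9.26 and 10.5. Ehf, Cldn4, Cldn7 and Cd24a had no peak in any list.

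Among the further stellate genes, Cygb, the globin of stellate cells, had 2 H2A.Z peaks and 1 ATACseq peak in each genotype. Acta2, smooth muscle actin, had 3 H2A.Z peaks in WT and 1 in Uhrf1hepKO, with highest folds of 10.2 and 6.74. Vim, the gene of vimentin, had 1 ATACseq peak and no H2A.Z peak in both genotypes, as Col1a1 did. The collagen genes Col1a2 and Col3a1 had 1 H2A.Z peak each in both genotypes and no ATACseq peak. Hand2, Tcf21, Ngfr and Lum had no peak in any list.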
